A study of Rattus norvegicus with 24 samples.

Results

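Myc and the genes of the G1 switch of the cell cycle were followed in testes of rats exposed to dibutyl phthalate (DBP), a phthalate plasticizer that lowers fetal testosterone and impairs male development in rats. The 8 genes were Myc, Mycn, Ccnd1, Ccnd2, Ccnd3, Ccne1, Cdk4 and Cdkn1b, and every probe set of the array that is annotated with one of these symbols alone was taken. This gave 11 of the 31042 probe sets tested, since Ccnd1 has 3 and Cdkn1b has 2, and 8 of 14217 named genes. The genes were chosen by measured values of these arrays: Ccnd2 was lower in the exposed fetal testis and Myc was higher at postnatal day 35 after DBP. The values of the members in the contrasts of DBP with oil at the fetal age, and of postnatal DBP with postnatal oil, are therefore given as a description without a test.

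All 24 samples were testes of male Fisher 344 rats, with 1 array each and 4 arrays in each of 6 groups. Pregnant dams were dosed daily by gavage from gestational day 12 to 20 with corn oil or with 50 mg/kg DBP in corn oil. Testes of fetuses at gestational day 20 (GD20) came from 4 oil dams (numbers 2, 3, 4 and 5) and 4 DBP dams (16, 18, 19 and 21), the latter 6 hours after the last dose; no interval is recorded for the oil dams, and the array of dam 2 is labelled as a pool. At postnatal day 35 (PND35), male offspring of oil or DBP dams were gavaged once more with corn oil or 500 mg/kg DBP and their testes were taken 6 hours later. In the names of the 4 postnatal groups the fetal exposure comes first: oil-oil (pups 104, 110, 114 and 120), oil-DBP (105, 111, 115 and 121), DBP-oil (123, 127, 132 and 134) and DBP-DBP (124, 128, 133 and 135). RNA was taken from the whole testis, so fewer cells of a type and less RNA per cell cannot be told apart in any value below.

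In the G1 phase a cell decides whether to divide. Myc and Mycn are transcription factors that pair with Max, bind E-box sequences and raise genes of growth and ribosome synthesis; the Mxd proteins and Mnt pair with Max too and oppose them. The D-type cyclins Ccnd1, Ccnd2 and Ccnd3 activate Cdk4 and Cdk6, which phosphorylate the retinoblastoma protein and release E2F, a transcription factor of the genes of DNA replication; cyclin E then drives Cdk2 into S phase, and Cdkn1b, also called p27Kip1, holds back the cyclin E and Cdk2 complex. In the testis, Sertoli cells multiply before birth and stop dividing around puberty, when Cdkn1b rises in them, and cyclin D2 is known from Sertoli, granulosa and germ cells.

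The 250 bases before the transcription start were available from RefSeq (GRCr8) for 4 of the 8 genes, Ccnd3, Ccne1, Cdk4 and Cdkn1b. Those of Cdk4 and Cdkn1b are shown. Among these 4 only the window of Cdk4 held the E-box sequence that Myc binds, and Cdkn1b was the member that differed most beside Myc at PND35. The promoters of Myc, Mycn, Ccnd1 and Ccnd2 were not searched. Both lie on the plus strand, Cdk4 at chr7:64771203-64771452 and Cdkn1b at chr4:169491254-169491503, and capitals mark CACGTG, the E-box, and CCAAT or its reverse complement, the box of nuclear factor Y.
Cdk4: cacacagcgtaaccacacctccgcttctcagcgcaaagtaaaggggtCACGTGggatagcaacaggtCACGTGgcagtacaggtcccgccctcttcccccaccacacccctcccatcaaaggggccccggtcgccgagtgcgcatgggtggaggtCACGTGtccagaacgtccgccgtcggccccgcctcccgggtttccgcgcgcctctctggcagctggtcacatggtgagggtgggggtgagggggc
Cdkn1b: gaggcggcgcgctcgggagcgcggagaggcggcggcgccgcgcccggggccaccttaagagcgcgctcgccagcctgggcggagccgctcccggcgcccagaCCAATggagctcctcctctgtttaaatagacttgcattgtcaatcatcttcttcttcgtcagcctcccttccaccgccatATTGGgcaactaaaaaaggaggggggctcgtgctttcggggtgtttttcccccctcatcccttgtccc
The Cdk4 window held 3 copies of CACGTG, starting 203, 183 and 95 bases before the start site. Among 33469 rat promoter windows of the same length, 5.59% held CACGTG at least once and 17 windows (0.0508%) held it 3 times or more. The windows of Ccnd3 (chr9:20897876-20898125), Ccne1 (chr1:99927910-99928159), both on the minus strand, and Cdkn1b held none. CCAAT was read on both strands and was found 2 times for Cdkn1b, once for Ccnd3 and not for Ccne1 or Cdk4, against 34.0% of all windows with at least 1 match. TTTCCCGC and TTTGGCGC, forms of the E2F sequence, and GTAAACA, the forkhead sequence, were searched on both strands and matched none of the 4 windows. These matches describe letters in a window and say nothing about binding.

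Values are linear probe-set intensity as deposited, and log2 fold changes are on the log2(intensity + 16) scale with the moderated standard error (SE) of a limma fit. Intensities of different probe sets are not comparable with each other. A probe set was called where the p-value adjusted by Benjamini-Hochberg over all 31042 probe sets was under 0.05. The median intensity of an array was 164 to 175 at GD20 and 101 to 114 at PND35, and RNA integrity numbers were 8.2 to 8.9. Bacterial poly-A spike-ins fell into a low and a high class: at GD20 the DBP dams 19 and 21 were low, and among the pups those with fetal oil and pups 123 and 127 were low while pups 132, 134 and all DBP-DBP arrays were high. Spike-in class and fetal exposure therefore cannot be told apart among pups that received postnatal DBP. RNA was extracted with Trizol at GD20 and from pups 104 and 115, and with a column kit from the other 14 pups. Markers set the 2 ages apart as the labels do. The summed intensity of 7 spermatid markers was 322 to 368 in the fetal oil group, with Tnp2 and Akap4 under 16 on average, and 88373 to 116683 in oil-oil pups.

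Myc was level between the fetal groups and several-fold higher in every pup given DBP. At GD20 its intensity was 399, 347, 331 and 381 in oil dams 2, 3, 4 and 5 and 347, 372, 342 and 359 in DBP dams 16, 18, 19 and 21. The fetal groups overlapped almost entirely (log2 fold change -0.03 ± 0.09). At PND35 after fetal oil, Myc was 110, 138, 55.1 and 82.1 in pups 104, 110, 114 and 120, which received oil. It was 647, 727, 706 and 869 in pups 105, 111, 115 and 121, which received DBP. No DBP pup came near an oil pup, and the means were 737 ± 94.1 against 96.1 ± 35.5 (SD, n = 4 each), with a ratio of 7.67 and a log2 fold change of 2.73 ± 0.23.

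After fetal DBP the same picture held in separate animals. Myc was 39.4, 92.5, 97.5 and 49.9 in the DBP-oil pups 123, 127, 132 and 134 and 596, 612, 664 and 729 in the DBP-DBP pups 124, 128, 133 and 135. The groups again lay far apart, with means of 69.8 ± 29.4 and 650 ± 60.1 (SD, n = 4 each), a ratio of 9.31 and a log2 fold change of 3.00 ± 0.23. Over the 6 groups, the mean of Myc ran from oil-DBP (737) through DBP-DBP (650), GD20 oil (364), GD20 DBP (355) and oil-oil (96.1) to DBP-oil (69.8). The arrays of neighbours in this order overlapped within each of the 3 pairs, and the pairs did not overlap one another.

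Mycn, the paralog prominent in embryonic tissue, did not follow Myc. At GD20 it was 998, 1049, 918 and 898 in the oil dams and 951, 1045, 887 and 996 in the DBP dams, with groups that overlapped fully (0.01 ± 0.08). At PND35 it was 380, 341, 419 and 393 in oil-oil pups and 291, 302, 426 and 359 in oil-DBP pups. In DBP-oil pups it was 378, 330, 364 and 465, and in DBP-DBP pups 286, 328, 363 and 303. All 4 postnatal groups overlapped, and the difference of postnatal DBP from oil was -0.22 ± 0.13 with fetal oil and -0.27 ± 0.13 with fetal DBP.

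**Figure D1:**
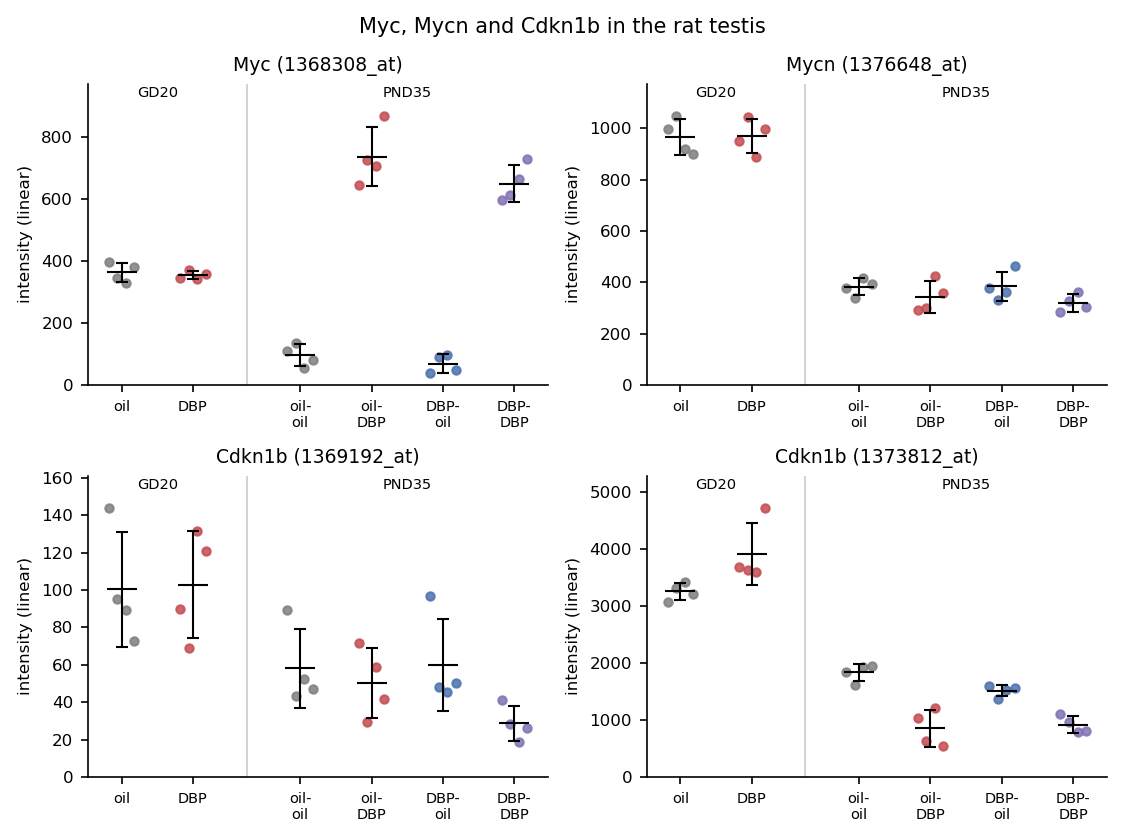
Intensity of Myc, Mycn and both Cdkn1b probe sets (linear vertical axes from 0) in the 6 groups; each point is 1 array, the horizontal bar the mean and the whiskers the SD (n = 4). Myc lay between 596 and 869 in the 8 pups given DBP and between 39.4 and 138 in the 8 pups given oil, and Cdkn1b (1373812_at) was lower in every pup given DBP than in any pup given oil of the same fetal exposure.

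Among the D cyclins, Ccnd2 differed in the fetus and Ccnd1 and Ccnd3 did not separate the groups. Ccnd2, cyclin D2, was 7763, 7593, 8116 and 7432 in the fetal oil dams 2, 3, 4 and 5. It was 4874, 2692, 5046 and 4788 in the DBP dams 16, 18, 19 and 21. All DBP arrays were below all oil arrays and dam 18 was far below the other 3, so that the mean was 4350 ± 1110 against 7726 ± 293 (SD, n = 4 each), a ratio of 0.563 and a log2 fold change of -0.87 ± 0.16. Without dam 18 the value was -0.65, and over 18 alternative settings it ran from -1.09 to -0.65; the call was kept in 7 of them and lost, among others, without any 1 of the other 7 arrays. With only the high spike-in class (without dams 19 and 21) it was -1.09.

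Ccnd2 did not separate the groups at PND35. It was 997, 963, 1314 and 1433 in oil-oil pups and 1124, 1050, 1091 and 1027 in oil-DBP pups (-0.18 ± 0.12). It was 1399, 1186, 1534 and 1565 in DBP-oil pups and 1317, 1227, 1043 and 1267 in DBP-DBP pups (-0.24 ± 0.12). Ccnd2 arrays of oil and DBP pups overlapped after both fetal exposures.

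Ccnd1, cyclin D1, had 3 probe sets, which did not move together in the fetus. On 1371150_at its mean was 186 ± 15.6 in oil dams and 137 ± 32.5 in DBP dams (SD, n = 4 each), which is a log2 fold change of -0.42 ± 0.17. On 1383075_at it was 189 ± 73.6 and 130 ± 38.8 (-0.46 ± 0.27), and on 1371643_at 219 ± 21.3 and 240 ± 26.9 (0.12 ± 0.12). The arrays of both groups overlapped on all 3 probe sets. At PND35 the means of the 3 probe sets ran from 119 to 209 over the 4 groups, and postnatal DBP minus oil lay between 0.11 and 0.19 after fetal oil and between -0.06 and 0.11 after fetal DBP, below the SE in each case.

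Ccnd3, cyclin D3, was 3491, 3631, 3959 and 3867 in fetal oil dams and 3820, 4016, 4256 and 4290 in DBP dams. The DBP arrays were mostly the higher ones but overlapped the oil arrays (0.13 ± 0.07). At PND35 the means were 538 ± 83.0 in oil-oil, 450 ± 97.3 in oil-DBP, 446 ± 43.6 in DBP-oil and 405 ± 69.3 in DBP-DBP pups (SD, n = 4 each), and postnatal DBP minus oil was -0.33 ± 0.16 and -0.16 ± 0.16 with overlapping arrays.

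Cdk4, the kinase that the D cyclins activate, was 5953, 6019, 6048 and 6007 in oil dams and 6260, 6084, 7667 and 6128 in DBP dams. All DBP arrays were above all oil arrays, 3 of them by a small margin and dam 19 by a wide one (0.11 ± 0.08; 0.04 without dam 19). At PND35, Cdk4 means ran only from 1842 ± 146 in DBP-DBP to 2049 ± 202 in oil-oil pups (SD, n = 4 each). The log2 fold changes of Cdk4 after postnatal DBP were -0.10 ± 0.08 after fetal oil and -0.09 ± 0.08 after fetal DBP. A link between Myc and Cdk4 was not tested.

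Ccne1, cyclin E1, was 450, 480, 449 and 481 in oil dams and 458, 449, 462 and 431 in DBP dams, with overlapping groups (-0.05 ± 0.08). At PND35 it was 487, 484, 531 and 489 in oil-oil pups and 533, 624, 469 and 485 in oil-DBP pups (0.01 ± 0.12). It was 590, 566, 466 and 471 in DBP-oil pups and 463, 439, 461 and 331 in DBP-DBP pups (-0.32 ± 0.12). The DBP-DBP arrays of Ccne1 were all below the DBP-oil arrays, though the closest pups, at 463 and 466, differed little before centring, and centred values overlapped.

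**Figure D2:**
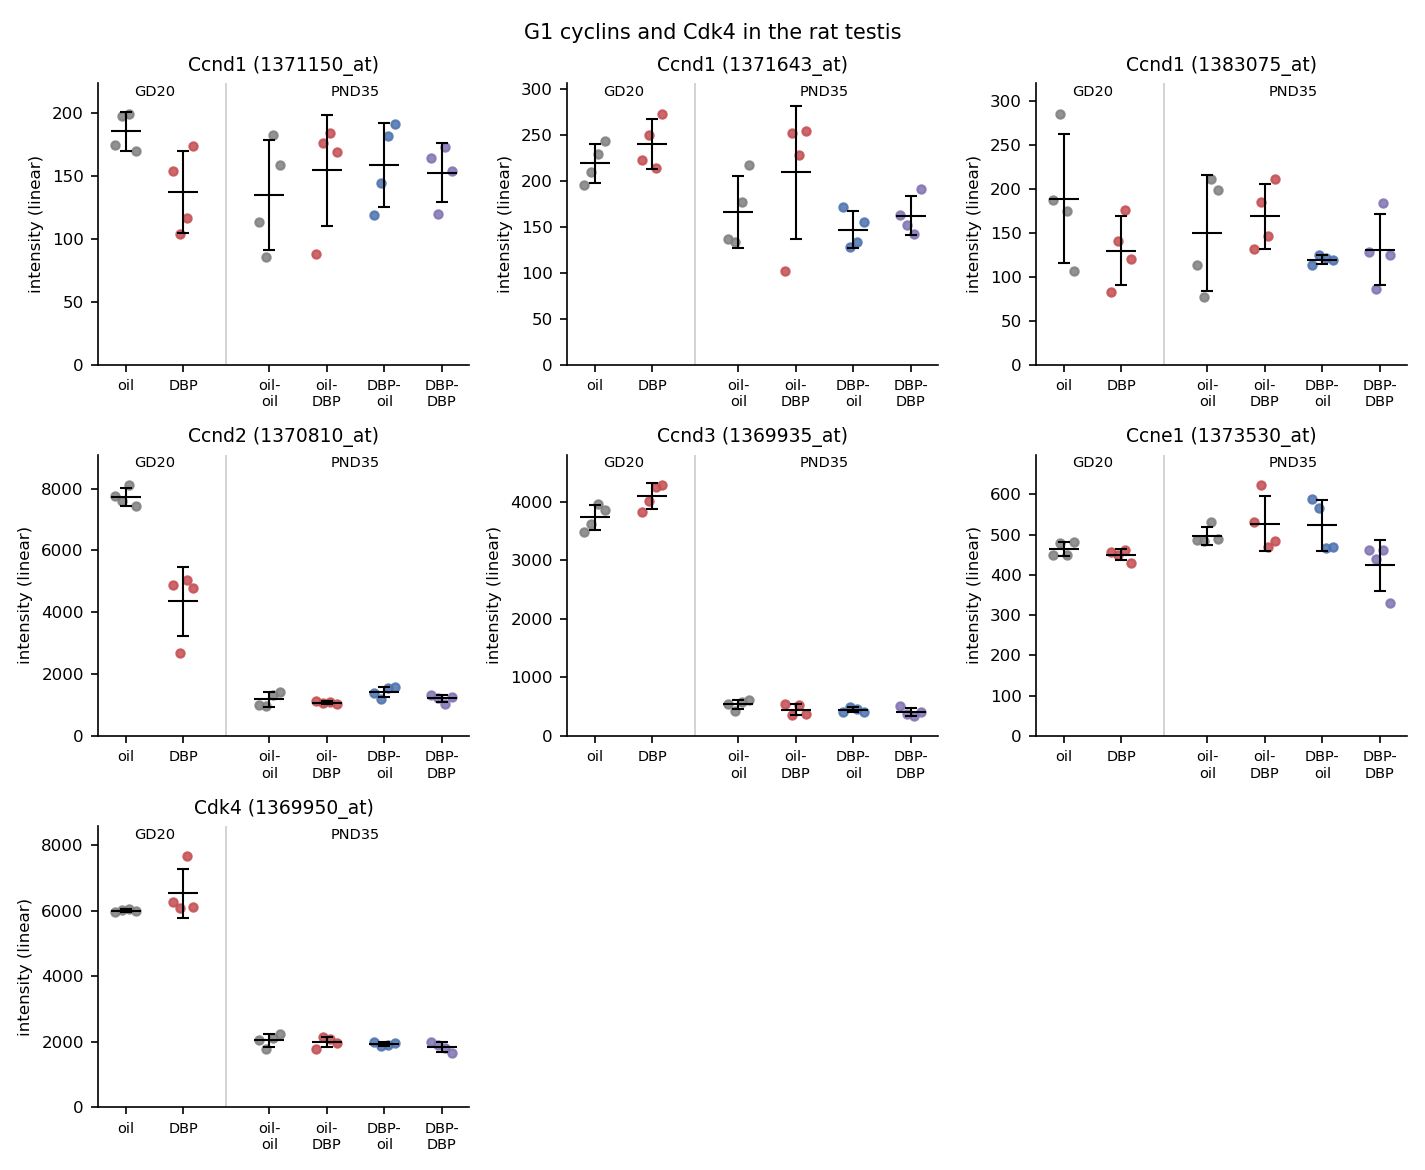
Intensity of the 3 Ccnd1 probe sets, Ccnd2, Ccnd3, Ccne1 and Cdk4 (linear vertical axes from 0) in the 6 groups; points are arrays, bars the mean and whiskers the SD (n = 4). Ccnd2 in the fetal testis lay between 7432 and 8116 after oil and between 2692 and 5046 after DBP, whereas the exposure groups of Ccnd3 and of the 3 Ccnd1 probe sets overlapped at both ages.

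Cdkn1b was lower in pups given DBP on the brighter of its probe sets. On 1373812_at it was 1850, 1625, 1936 and 1956 in the oil-oil pups 104, 110, 114 and 120 and 1047, 632, 1208 and 540 in the oil-DBP pups 105, 111, 115 and 121. The groups did not overlap and pups 111 and 121 were the lowest, with means of 1842 ± 152 and 857 ± 322 (SD, n = 4 each), a ratio of 0.465 and a log2 fold change of -1.23 ± 0.19. After fetal DBP it was 1595, 1381, 1527 and 1567 in DBP-oil pups and 1114, 976, 788 and 813 in DBP-DBP pups. These groups did not overlap either (ratio of means 0.608, log2 fold change -0.74 ± 0.19), and the call was lost without pup 123, 133 or 135 and without the intensity trend of the fit, at log2 fold changes of -0.84 to -0.66 over the 20 alternatives.

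The other Cdkn1b probe set, 1369192_at, was dim. It was 89.5, 43.3, 52.6 and 47.2 in oil-oil pups and 71.7, 29.3, 58.6 and 41.8 in oil-DBP pups, which overlapped (-0.23 ± 0.30). It was 96.9, 48.1, 45.4 and 50.1 in DBP-oil pups and 41.5, 28.7, 18.6 and 26.2 in DBP-DBP pups, which did not (-0.76 ± 0.30, not called). Both probe sets thus had lower means after postnatal DBP, of unequal size after fetal oil.

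In the fetus, Cdkn1b on 1373812_at was 3078, 3319, 3435 and 3223 in oil dams and 3697, 3638, 3611 and 4729 in DBP dams. All DBP arrays were above all oil arrays and dam 21 stood out (0.25 ± 0.09; 0.16 without dam 21). On 1369192_at the fetal means were 100 ± 30.6 and 103 ± 28.6 (SD, n = 4 each), and the arrays overlapped (0.03 ± 0.24).

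Over the 11 probe sets, 1 was called in the fetal contrast (Ccnd2, lower), where 0.441% of all probe sets were called and 0.232% were called lower. After fetal oil 2 were called (Myc higher, Cdkn1b lower), where 8.92% of all probe sets were called, 4.77% higher and 4.15% lower. After fetal DBP the same 2 were called, where 5.23% of all were called, 3.64% higher and 1.58% lower. Nothing is read from these counts, because the members were chosen with these contrasts known. Overlap was counted here in the values as fitted, which were centred at PND35. Groups did not overlap for 2 higher and 1 lower member probe set at GD20 (3.20% and 4.00% of all). These counts were 1 and 1 after fetal oil (5.33% and 6.42%) and 1 and 2 after fetal DBP (5.93% and 6.29%).

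Summed markers of several cell types are given beside these values. In the fetus, the summed intensity of 7 peritubular myoid markers was 24552 to 26751 in oil dams and 27879 to 34282 in DBP dams. These ranges did not overlap. The sum of 10 Sertoli markers was 43353 to 45877 and 41807 to 53419. That of 9 gonocyte and spermatogonium markers was 4432 to 4757 and 4646 to 5446. None of these 26 markers was called, where 0.563% of all genes were called. An unadjusted p under 0.05 (limma) was found for 3 peritubular, 4 Sertoli and 1 gonocyte and spermatogonium marker. These are 42.9%, 40% and 11.1% of the lists, against 13.1% of all genes. Dam 18, the lowest in Ccnd2, had the lowest Sertoli sum of the 8 arrays (41807). Dam 21, the highest in Cdkn1b, had the highest sum of 7 spermatid markers (3944, against 301 to 649 in the other DBP dams) and of 7 spermatocyte markers (4393, against 2429 to 2776). Dams 19 and 21, of the low spike-in class, had the highest Sertoli sums (51215 and 53419). The part of these markers in the values of Ccnd2, Cdk4 and Cdkn1b was not tested.

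At PND35, the sum of 7 peritubular markers was 8523 to 9686 in oil-oil and 11079 to 13211 in oil-DBP pups, and 8465 to 8954 in DBP-oil and 11325 to 12396 in DBP-DBP pups. The sum of 10 macrophage and leukocyte markers was 4797 to 5950, 5282 to 6922, 3861 to 5121 and 5326 to 7743 in these groups in the same order. The sum of 9 Leydig cell markers was 16613 to 22066 in oil-oil and 7080 to 14797 in oil-DBP pups, and pups 111 and 121, the lowest in Cdkn1b, were also the lowest here (7080 and 8812). After fetal DBP the Leydig sum was 13805 to 19132 in DBP-oil and 11519 to 14339 in DBP-DBP pups, which overlapped. Of the 9 Leydig markers, 5 were called lower and 1 higher after fetal oil, against 5.98% and 6.13% of all genes. The higher one was Star, at 1.11 ± 0.33. After fetal DBP, 2 were called lower and 0 higher, against 2.15% and 5.12% of all genes. The sum of 7 spermatid markers was 88373 to 116683 in oil-oil and 71272 to 106883 in oil-DBP pups. It was 78748 to 103289 in DBP-oil and 76858 to 85617 in DBP-DBP pups. By limma 4 of the 7 were called lower after fetal oil, against 5.98% of all genes. After fetal DBP none was called lower, against 2.15%, and 0 had an unadjusted p under 0.05, against 18.6% of all genes. The part of these markers in the values of Myc and Cdkn1b was not tested.

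The effect of the fetal exposure that was left at PND35 was not named in the choice of genes and was tested. Arrays that showed the rise of Myc enter these contrasts, so its values here are a description without a test. By limma, no member was called in DBP-oil against oil-oil pups, where 1 of 31042 probe sets (0.00322%) was called. The log2 fold changes ran from -0.41 ± 0.23 for Myc (95% interval -0.88 to 0.06) to 0.26 ± 0.12 for Ccnd2 (0.01 to 0.51, limma, adjusted p = 0.642). Ccnd2 was the single member with an unadjusted p under 0.05. Cdkn1b on 1373812_at was lower in all 4 DBP-oil pups than in all 4 oil-oil pups, as 2.04% of all probe sets were, at -0.29 ± 0.19 (-0.68 to 0.09, limma, adjusted p = 0.783). Ccnd2 thus had a positive value at PND35 where the fetal value was -0.87; the difference between the ages was not tested.

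In DBP-DBP against oil-DBP pups no member was called either, nor was any of the 31042 probe sets (0%). No member separated these groups in centred values, as 2.86% of all did upward and 2.16% downward. As deposited, Ccne1 was lower in every DBP-DBP pup (up to 463) than in any oil-DBP pup (469 or more). Ccne1 was the single member with an unadjusted p under 0.05 (-0.28 ± 0.12, 95% interval -0.54 to -0.02, limma, adjusted p = 0.504), and Myc was -0.15 ± 0.23 (-0.62 to 0.33). The difference between the effects of postnatal DBP after fetal DBP and after fetal oil, tested as an interaction, was called for 0 of 31042 probe sets (0%) by limma; 653 of 14217 genes and 0 of the 11 member probe sets had an unadjusted p under 0.05. For Myc it was 0.27 ± 0.32 (-0.40 to 0.93), for Cdkn1b on 1373812_at 0.49 ± 0.26 (-0.06 to 1.03, limma, adjusted p = 0.954) and for Ccne1 -0.33 ± 0.18 (-0.70 to 0.04, limma, adjusted p = 0.954). The Cdkn1b interval holds 0 and also values larger in size than its log2 fold change of -0.74 after fetal DBP. These 3 contrasts share arrays with one another and with both contrasts of postnatal DBP.

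**Figure D3:**
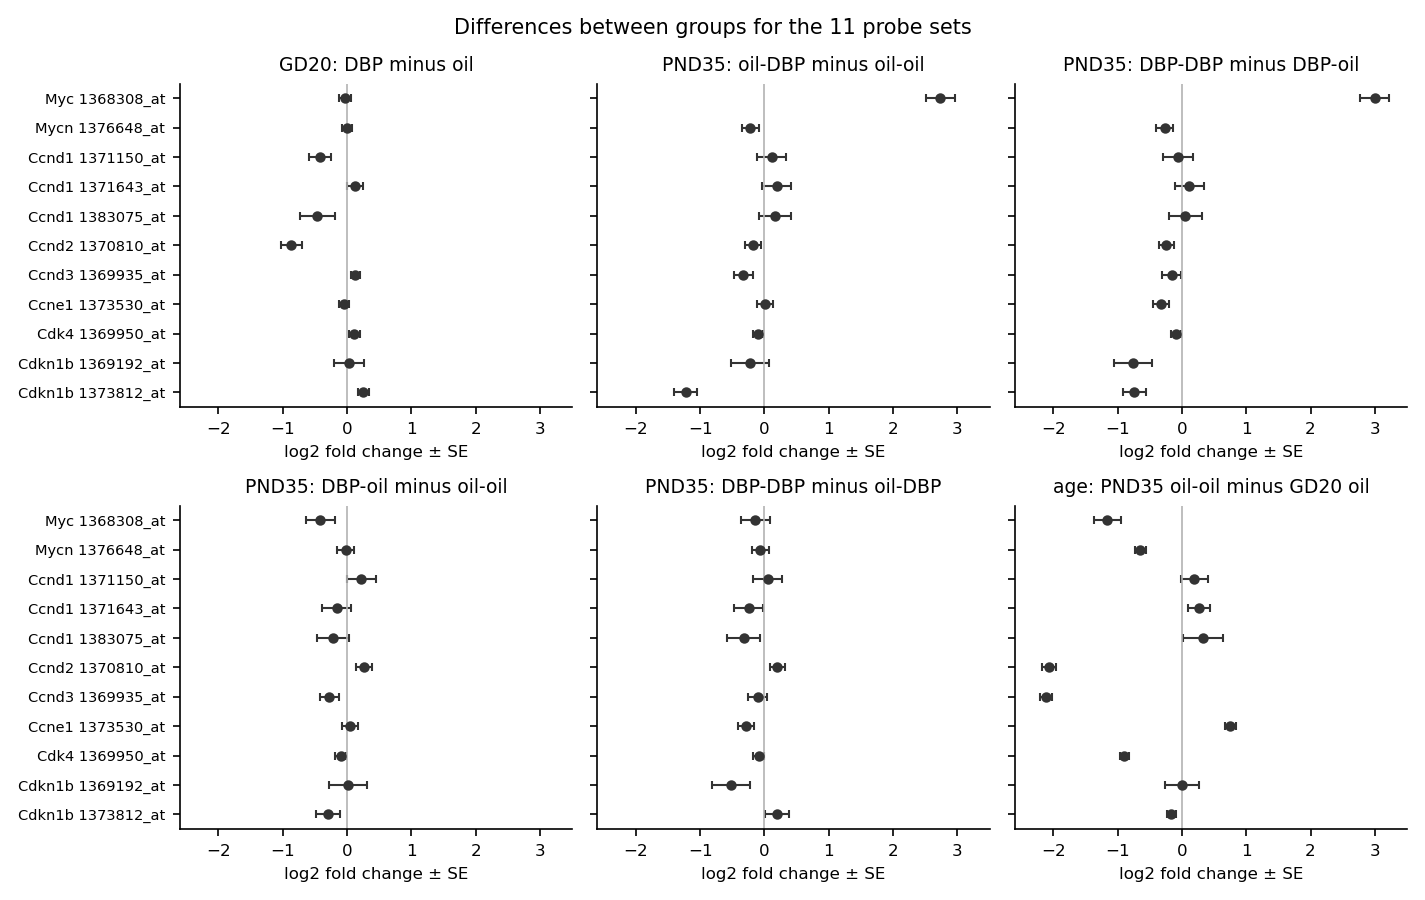
Log2 fold change ± SE (horizontal axis) of the 11 probe sets in 5 contrasts of DBP and the contrast of age, each from 4 arrays against 4, with arrays at PND35 and in the contrast of age centred on their median. Myc stands at 2.73 and 3.00 after postnatal DBP, Ccnd2 at -0.87 after fetal DBP and at -2.06 with age, and no value of the contrasts of fetal DBP at PND35 lies beyond -0.52 or 0.26.

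The members were also compared between the ages. The choice of genes used the fetal oil level of Ccnd2 and the postnatal oil level of Myc, which enter this contrast, so both are described here without a test. Oil-oil pups were compared with fetal oil dams, with each array centred on its median because the median probe set was 0.65 lower on the log2 scale at PND35 as deposited, so that values are relative to that shift. Of the 11 probe sets 7 were called, 1 higher and 6 lower (Ccnd2 and Myc among them), where 67.4% of all probe sets were called, 41.9% higher and 25.5% lower. Nothing is read from the calls of Ccnd2 and Myc. The groups did not overlap for 1 higher and 5 lower member probe sets, against 37.3% and 23.8% of all. Extraction kit and age cannot be told apart here except on 1 array.

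Ccnd3 and Ccnd2 had the largest differences with age among the 11 probe sets. Ccnd3 fell by 2.12 ± 0.10 (limma, adjusted p = 1.39e-10), from 3737 ± 214 to 538 ± 83.0, and Ccnd2 was at -2.06 ± 0.11, from 7726 ± 293 to 1177 ± 233 (SD, n = 4 each). Myc was at -1.16 ± 0.21. Cdk4 fell by 0.90 ± 0.07 (limma, adjusted p = 4.14e-08) and Mycn fell by 0.65 ± 0.09 (2.69e-05). Mycn, Ccnd3, Cdk4 and Cdkn1b (1373812_at) were called lower under all 4 scalings of the arrays. Cdkn1b passed narrowly with centred medians (-0.17 ± 0.07, limma, adjusted p = 0.0449). Ccne1 was the only member called higher, at 465 ± 17.5 in the fetus and 498 ± 22.4 in pups (SD, n = 4 each): relative to the median it was 0.75 ± 0.09 higher (limma, adjusted p = 3.32e-06), and as deposited it was 0.09 higher and not called. Ccnd1 was not called on any probe set (0.19, 0.26 and 0.33), and the 0.26 of 1371643_at turned to -0.39 as deposited and to -0.09 with centring on the 75th percentile. Markers also differed with age: relative to the median, all 7 spermatocyte and all 7 spermatid markers were called higher at PND35. Of 9 Leydig markers 7 were called lower and 0 higher, and of 7 peritubular markers 6 lower and 1 higher. Of 10 Sertoli markers 6 were called lower and 3 higher. Among all genes, 26.7% were called lower and 49.1% higher. The Sertoli sum as deposited was 43353 to 45877 in fetal oil dams and 49248 to 59886 in oil-oil pups. The part of these markers in the difference was not tested.

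The genes around the members were read from 4 lists: other G1/S machinery (31 genes measured), partners and opponents of Myc (19), known Myc targets (29), and targets of E2F and of S phase (18). After postnatal DBP in fetal-oil pups, 3 machinery genes rose and 1 fell, against 6.13% and 5.98% (12.1% in all) of all 14217 genes. Cdkn1a, the p53-induced inhibitor of cyclin-dependent kinases, rose by 1.69 ± 0.17, from 689 ± 134 to 2383 ± 559 (SD, n = 4 each; limma, adjusted p = 6.09e-07). E2f6, a repressor of the E2F family, rose by 0.67 ± 0.12 and Ccng1, cyclin G1, by 0.61 ± 0.13. Ccng2, cyclin G2, which is linked to cell cycle arrest, fell by 0.80 ± 0.18. The median of the list was -0.07 and that of all genes -0.11. Ccne2 (-0.13 ± 0.07), Cdk2 (-0.22 ± 0.12) and E2f1 (-0.23 ± 0.17) were not called, and Cdk6 was dim (25.7 ± 14.4 and 26.9 ± 20.0).

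After fetal DBP, 2 machinery genes rose and none fell, against 5.12% and 2.15% (7.27% in all) of all genes. They were Cdkn1a (1.57 ± 0.17, from 643 ± 166 to 1926 ± 131, SD, n = 4 each; limma, adjusted p = 1.95e-06) and Ccng1 (0.51 ± 0.13). So Cdkn1a was higher and Cdkn1b lower in the same pups, although both encode inhibitors of the same kinases. The values of E2f6 (0.39 ± 0.12) and Ccng2 (-0.54 ± 0.18) had the sign seen after fetal oil and were not called. In this contrast 1 machinery gene rose without pup 127, 133 or 134, and after fetal oil 2 fell without pup 105 or 120.

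In the Myc network 2 of 19 genes rose (10.5%) and 2 fell (10.5%) after fetal oil, against 6.13% and 5.98% of all genes, and after fetal DBP none rose and 2 fell, against 5.12% and 2.15%. Mycl, another Myc paralog, rose by 0.90 ± 0.19 and Mlx, a Max-like partner, by 0.32 ± 0.08 after fetal oil, while the Max partners Mxi1 and Mxd4, which oppose Myc, fell by 0.60 ± 0.12 and 0.62 ± 0.13. After fetal DBP, Mxi1 (by 0.59 ± 0.12) and Mxd4 (by 0.56 ± 0.13) fell again, and Mycl (0.49 ± 0.19) and Mlx (0.25 ± 0.08) were not called. The list medians were 0.17 and -0.05, against -0.11 and -0.07 over all genes. Max itself, the shared partner, was not called (0.17 ± 0.10 and 0.04 ± 0.10), nor was Mxd1 (-0.16 ± 0.11 and -0.10 ± 0.11). Without pup 105, 4 genes of the network rose and 4 fell after fetal oil, and without pup 121 only 1 rose, while over all probe sets 4607 and 1716 were called in place of 2770. Without pup 133, 1 fell after fetal DBP.

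Of 29 Myc targets 4 rose (13.8%) and 2 fell (6.90%) after fetal oil, against 6.13% and 5.98% of all genes. After fetal DBP 2 rose (6.90%) and none fell, against 5.12% and 2.15%. The medians of the list were 0.11 after fetal oil and 0.01 after fetal DBP, against -0.11 and -0.07 over all genes. Rcl1, a factor of ribosomal RNA processing, rose by 0.81 ± 0.14 and 0.61 ± 0.14, and Ppat, the first enzyme of purine synthesis, by 0.61 ± 0.13 and 0.53 ± 0.13 in the respective contrasts. After fetal oil Eif4a1, a helicase of translation initiation, rose by 0.51 ± 0.10, and Gnl3, the nucleolar protein nucleostemin, by 0.33 ± 0.10, while Wdr12 fell by 0.26 ± 0.07 and Nme1 by 0.25 ± 0.07. Odc1, ornithine decarboxylase and a classical Myc target, was not called and had a negative value in both contrasts (-0.19 ± 0.08 and -0.17 ± 0.08). Without pup 105, where calls over all probe sets were 4607 in place of 2770, 7 targets rose after fetal oil. The number that fell there was 0 to 3 over 20 alternatives. It was 0 with arrays as deposited and without pup 121, and 3 with a filter on dim probe sets. Without pup 104, 111, 114, 115 or 120 it was 1. After fetal DBP, 1 target rose without pup 123, 133 or 135, and 1 fell without pup 132.

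Of the 18 E2F and S phase targets none rose after postnatal DBP, against 6.13% of all genes after fetal oil and 5.12% after fetal DBP, and 2 fell after fetal oil (11.1%, against 5.98%). After fetal oil Tk1, the thymidine kinase of S phase, fell by 0.60 ± 0.16. Mcm7, a subunit of the replicative helicase, fell by 0.29 ± 0.07. In 8 of 20 alternatives 0 or 1 gene fell, with 1 without pup 104, 111, 120 or 121. After fetal DBP none was called (limma), against 2.15% of all genes called lower. An unadjusted p under 0.05 was found for 0 of them there, against 18.6% of all genes. The list median was -0.07 in both contrasts, and that of all genes -0.11 and -0.07.

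**Figure D4:**
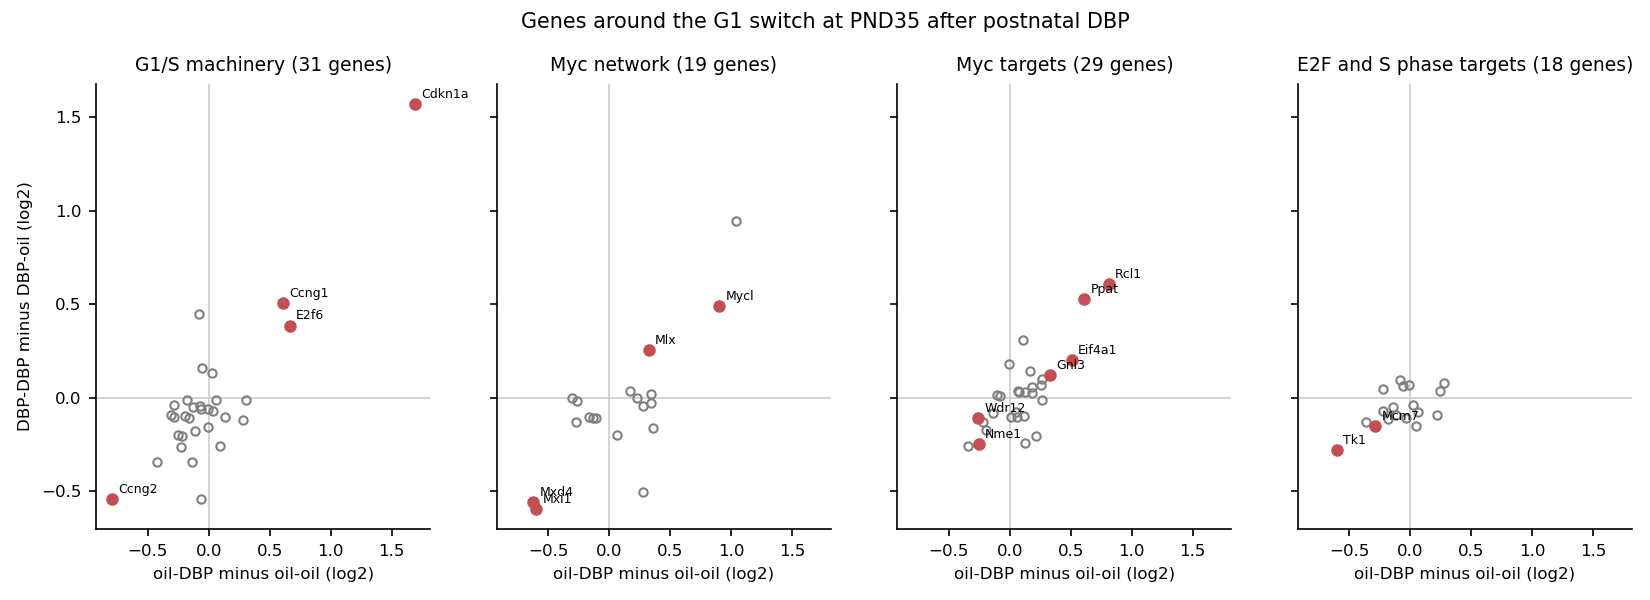
Log2 fold change of postnatal DBP against oil after fetal oil (horizontal axis) and after fetal DBP (vertical axis) for the genes of the 4 lists; each point is 1 gene, and filled, named points were called in either contrast. Cdkn1a stands at 1.69 and 1.57, Mxi1 at -0.60 and -0.59, and the E2F and S phase targets lie close to 0 except Tk1 at -0.60 and -0.28.

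In the fetal contrast none of the 97 listed genes was called by limma, against 0.563% of all genes (0.309% higher and 0.253% lower), and 21 (21.6%) had an unadjusted p under 0.05, against 13.1% of all genes. The list medians were -0.04 for machinery, 0.00 for the Myc network, 0.06 for Myc targets and -0.10 for E2F and S phase targets, and 0.02 for all genes. Cdkn1a was 0.32 ± 0.14, E2f1 0.04 ± 0.17, Ccne2 -0.08 ± 0.09 and Cdk2 0.07 ± 0.08. In both contrasts of fetal DBP at PND35 and in the interaction, no gene of any list was called by limma, as no gene was (0%), and 5, 11 and 5 of the 97 had an unadjusted p under 0.05 before postnatal oil, before postnatal DBP and in the interaction (5.15%, 11.3% and 5.15%, against 6.46%, 9.76% and 4.59% of all genes).

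With age, most E2F and S phase targets fell: 13 of 18 were called lower and 3 higher relative to the median, against 26.7% and 49.1% of all genes, with a list median of -0.80 and a median of 0.41 over all genes. The 13 were called lower under all 4 scalings, while the 3 that were higher (Pcna, Mcm7 and Cdc45) were not called in every scaling. Tk1 fell by 2.04 ± 0.09 (limma, adjusted p = 1.04e-10), Mcm4 by 2.24 ± 0.11 (2.35e-10) and Mcm2 by 1.77 ± 0.09 (6.57e-10). Over all genes, 28.1% were called higher and 26.7% lower under all 4 scalings. In the machinery 7 of 31 genes were higher and 12 lower under all 4. Ccne2 rose by 2.04 ± 0.07, Cdkn2c, the inhibitor of Cdk4 and Cdk6, by 1.90 ± 0.09, and Cdkn1a by 2.10 ± 0.16. Cdkn1c, another inhibitor of the Cdkn1 family, fell by 3.60 ± 0.13, and Ccna2, cyclin A2, fell by 2.40 ± 0.19. Among Myc partners 7 of 19 were higher and 5 lower under all 4, with Mxi1 at 1.91 ± 0.06, Mxd1 at 1.76 ± 0.13 and Mxd3 at -2.43 ± 0.36. Among Myc targets these counts were 5 and 10 of 29, with Wdr12 at 2.36 ± 0.07 and Cad, an enzyme of pyrimidine synthesis, at -1.48 ± 0.11.

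The genes most like Myc over the 16 postnatal arrays were found among 11218 genes by the root mean square difference of log2 values, each taken relative to its own mean in oil-oil pups. They were Junb, an AP-1 transcription factor (0.35), Tifa, an adaptor of TRAF6 signalling (0.36), Gbp2, an interferon-induced GTPase (0.38), Cx3cl1, the chemokine fractalkine (0.38), and S1pr3, a receptor of sphingosine 1-phosphate (0.39), where the median over all genes was 2.01. Their log2 fold changes after postnatal DBP were 2.76, 2.87, 2.52, 3.01 and 2.34 after fetal oil and 2.84, 3.07, 2.74, 2.88 and 3.16 after fetal DBP. The genes most like Ccnd2 over the 8 fetal arrays, among 11822 genes, were Bmpr2, a BMP receptor (0.22), Palld, an actin-bundling protein (0.23), Prkce, protein kinase C epsilon (0.24), Cspg5, a proteoglycan (0.25), and Fam171a2 (0.27), where the median was 0.69. Their fetal log2 fold changes were -0.81, -0.59, -0.56, -0.66 and -0.62, all smaller in size than the -0.87 of Ccnd2.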

How the data were processed

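Total RNA of 24 rat testes was hybridised to Affymetrix Rat230_2 arrays, 1 array per sample. Values deposited by the authors are linear intensity per probe set; the submitters' processing notes name GCOS 1.0, and the summarization algorithm and the genome build are not given in the sources used here. Each array has the same 2% trimmed mean of about 500.

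The 8 genes and all gene lists were chosen with earlier results of these data known. After leaving out 57 control probe sets, log2(intensity + 16) of 31042 probe sets was fitted with limma 3.58.1 in R 4.3.3 (lmFit, eBayes with trend). Tests were two-sided, adjusted by Benjamini-Hochberg, at a threshold of 0.05. The pseudocount of 16 understates changes of dim genes; 12.1% to 19.4% of probe sets of an array were under 16. The 8 GD20 arrays were fitted as deposited (array medians spanned 0.079), and the 16 PND35 arrays (0.155) and the 8 arrays of the contrast of age (0.706) were centred on their medians. Lists use 1 probe set per gene, the one with the highest mean. Of the probe sets, 20826 had 1 gene symbol, 436 several and 9780 none. SD is over 4 arrays. Each array is 1 dam or pup by its label; littermates are not stated.

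Named genes are the members, up to 3 called genes in each direction per list and contrast by smallest p, a fixed set of 8 (Cdkn1a, Ccne2, Cdk2, Cdk6, E2f1, Max, Mxd1, Odc1) and the 5 genes most like Myc and most like Ccnd2. Gnl3, the fourth Myc target to pass, was named after its values were seen. Alternatives were other scalings, pseudocounts of 1 and 64, a filter on dim probe sets, no trend, array weights, spike-in class, fits of the compared arrays alone, a block of adjacent pups and leaving out each array. The scripts were tested on simulated data. Promoter windows are from RefSeq (GRCr8).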

Additional observations from a re-analysis of the deposited data

Results flagged for a closer look

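Dixon's ratio of the gap to the range was computed for the 11 probe sets in 6 groups of 4 arrays, 66 groups in all, and 6 exceeded Dixon's 95% critical value for 4 samples; chance exceeds it in about 1 of 20 groups. In the fetal DBP group, Ccnd2 was 2692 in dam 18 against 4788 to 5046 in the other 3 dams. Cdk4 was 7667 in dam 19 against 6084 to 6260, and Cdkn1b (1373812_at) was 4729 in dam 21 against 3611 to 3697. At PND35, Ccnd1 (1371150_at) was 88.3 in oil-DBP pup 105 against 169 to 184 in the other 3 pups. Ccne1 was 531 in oil-oil pup 114 against 484 to 489, and Cdkn1b (1369192_at) was 96.9 in DBP-oil pup 123 against 45.4 to 50.1. Of the 6 arrays, 3 were fetal DBP arrays, each from a different dam.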

How the results depend on the processing

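Over the 20 alternatives of each contrast of postnatal DBP, the log2 fold change of Myc was 2.30 to 2.92 after fetal oil and 2.43 to 3.28 after fetal DBP. That of Cdkn1b (1373812_at) was -1.43 to -1.04 after fetal oil. The members were chosen with these contrasts known, so these ranges are a description and not a test. The number of member probe sets called in the fetal contrast, 1 as reported, was 0 with arrays centred on the median or on the 75th percentile, with a pseudocount of 64 and without the intensity trend, and 0 to 1 when each array was left out; the cause was not tested, and the sign of Ccnd2 was negative in all 18. After fetal DBP it was 2, 1 without the intensity trend, and 1 to 2 when each array was left out. In the contrasts of fetal DBP at PND35 and the interaction it was 0 throughout, and with age 6 to 7. Cdkn1b (1369192_at) turned from 0.00 to -0.65 with age when arrays were left as deposited. The labels give the groups no shared replicate numbers; with adjacent pup numbers taken as a replicate block, members called stayed at 2, 2 and 0 after fetal oil, after fetal DBP and for the interaction.

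All probe sets called ranged from 10 to 197 in the fetal contrast (137 as reported), 1541 to 4607 after fetal oil (2770; 4607 without pup 105), 1097 to 2024 after fetal DBP (1623), 0 to 14 and 0 to 35 for fetal DBP in pups given oil and in pups given DBP (1 and 0), and 15125 to 23723 with age (20928). The share of calls that were higher was 47.4% at GD20 as deposited and 67.8% with centred medians, 53.5% after fetal oil with centred medians and 69.2% as deposited, and 62.2% with age with centred medians and 32.3% as deposited. Precision is limited by 4 arrays per group, and dim probe sets (Cdk6, Cdkn1b 1369192_at) lie close to background.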
